A study of Mus musculus with 36 samples.

Results

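The peroxisome proliferator-activated receptors (PPARs), the PGC-1 coactivators and the CCAAT/enhancer-binding proteins (C/EBPs) were examined in primary mouse cells exposed to β-hydroxybutyrate (βOHB) or butyrate. The 9 genes were *Ppara*, *Ppard* and *Pparg*, their dimerization partner *Rxra*, the coactivators *Ppargc1a* and *Ppargc1b*, and *Cebpa*, *Cebpb* and *Cebpd*. They were found by matching their symbols to the gene identifiers of the deposited table, which lists 54347 genes, and all 9 were among the 15340 genes abundant enough to be tested. RNA was sequenced from adipocytes, macrophages, skeletal myotubes and hepatocytes after 6 h with PBS (the control) or with βOHB or butyrate, each at 5 mM, and each of the 12 groups had 3 libraries. The ketone body βOHB differs from butyrate, a fermentation product and histone deacetylase inhibitor, by a hydroxyl group that butyrate lacks.

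All cells came from male C57Bl/6 mice, and for the hepatocytes the substrain was C57BL/6NHsd. Adipocytes were differentiated from the stromal vascular cells of inguinal fat, pooled from several animals, with a cocktail that held isobutylmethylxanthine, dexamethasone, insulin and rosiglitazone, itself an agonist of PPARγ, so that every adipocyte group, controls included, had received it earlier. Macrophages were grown from bone marrow with medium conditioned by L929 cells, myotubes were formed from myoblasts of hindlimb muscle, and hepatocytes were isolated by collagenase perfusion. The hepatocytes, controls included, were plated in medium with dexamethasone and then rested overnight without it before treatment. Each library held between 18366289 and 23221473 estimated counts. The sources used here give no age of the animals and do not say whether the 3 replicates of a group were separate cultures, so the P-values measure the spread between libraries, which may be technical. Adipocytes and macrophages were treated in the same medium, and myotubes and hepatocytes each in another, so except between the first pair, cell type and treatment medium cannot be told apart. Isolation and earlier culture differed between all cell types and cannot be told apart from cell type in any pair.

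PPARs are nuclear receptors that bind DNA as dimers with a retinoid X receptor and are activated by fatty acids and their derivatives. PPARα drives fatty acid oxidation and ketogenesis in the fasting liver, PPARδ drives fatty acid oxidation in muscle and other tissues, and PPARγ, together with C/EBPα, drives and maintains the adipocyte program. C/EBPβ and C/EBPδ act early in adipogenesis and in inflammatory and acute-phase responses, and the PGC-1 proteins dock onto nuclear receptors and raise mitochondrial gene expression.

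The cell types carried their own markers. The summed level of 6 markers per cell type, in CPM (counts scaled to a common library size), lay between 6303 and 8588 in the adipocyte libraries for the adipocyte list, between 10428 and 16849 for the macrophage list in macrophages, between 12560 and 27481 for the myotube list in myotubes and between 39056 and 49723 for the hepatocyte list in hepatocytes. Some of these sums were lower with butyrate: 10428 to 10965 against 16663 to 16849 CPM in control macrophages, with 3 of 6 markers called lower, and 12560 to 17298 against 19969 to 24534 CPM in control myotubes, with 4 of 6 called lower. In adipocytes the range was 6303 to 7714 against 7879 to 8588 CPM, with 3 of 6 called lower. With βOHB the myotube list was higher in myotubes, at 25291 to 27481 CPM, than in all controls, with 0 of its 6 genes called. The 3 proliferation markers in macrophages summed to 509 to 607 CPM with butyrate and 1306 to 1342 CPM in controls. In myotubes they summed to 29.5 to 64.5 CPM in controls, 17.3 to 22.2 CPM with βOHB, where 2 of 3 were called lower, and 11.2 to 16.3 CPM with butyrate, where 3 of 3 were. The part of these shifts in the results for the 9 genes was not tested. Myotube libraries also held markers of other cells, and these moved with treatment. The 6 macrophage markers (*Adgre1*, *Cd68*, *Csf1r*, *Itgam*, *Lyz2* and *Mrc1*) summed to 263, 211 and 105 CPM in the myotube control libraries, to 58.1, 42.8 and 103 CPM with βOHB and to 17.8, 70.0 and 26.1 CPM with butyrate, and all 6 had counts in every myotube group. The 6 hepatocyte markers (*Alb*, *Apoa1*, *Ttr*, *Fgb*, *Tat* and *Serpina1a*) summed to 0, 0.0881 and 0.0440 CPM in myotube controls, with *Apoa1*, *Ttr*, *Tat* and *Serpina1a* at 0, whereas they reached 35.4, 645 and 150 CPM with butyrate and 26.6 CPM in 1 of the βOHB libraries. Relative to the control cultures of the cell type concerned, the highest of these sums was 1.57% for macrophage markers and 1.48% for hepatocyte markers. In bulk RNA, fewer cells of a type and less RNA per cell cannot be told apart. Other cultures held such markers too. Fibroblast markers such as *Col1a1* summed to 3422 to 5757 CPM in the adipocyte libraries. They summed to 1375 to 1460 CPM in control macrophages and 762 to 918 CPM in control myotubes. In adipocytes the macrophage markers summed to 318 to 382 CPM in controls and 297 to 316 CPM with butyrate. With butyrate, all 6 myotube markers were called higher in macrophages, summing to 19.6 to 54.3 against 6.78 to 12.5 CPM in controls.

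Control cultures differed widely in these regulators. Per kilobase of exon, *Cebpa* was the most abundant member in adipocytes, with 146 ± 3.22 CPM per kb (mean ± SD, n = 3, as for all values of this kind), followed by *Cebpb* with 95.5 ± 12.2 and *Pparg* with 89.1 ± 0.87, of which the last pair lay within the spread of *Cebpb*. In macrophages *Cebpa* also led with 115 ± 3.47 CPM per kb, ahead of *Cebpb* with 53.0 ± 1.56, *Rxra* with 22.4 ± 0.18 and *Pparg* with 11.6 ± 0.48. Myotubes had *Cebpb* at 13.7 ± 0.99 and *Rxra* at 12.6 ± 0.80 CPM per kb, which overlapped within their SDs, then *Ppargc1b* at 5.27 ± 0.48, while *Ppard* at 3.40 ± 0.10, *Cebpa* at 3.35 ± 0.46 and *Ppargc1a* at 3.27 ± 0.38 could not be ranked. Hepatocytes had *Cebpb* at 112 ± 15.5, *Rxra* at 43.2 ± 3.44 and *Cebpa* at 36.2 ± 4.57 CPM per kb, the last pair overlapping within their SDs. These were followed by *Cebpd* at 9.94 ± 1.31, *Ppara* at 7.21 ± 1.67 and *Pparg* at 6.62 ± 0.11, of which *Ppara* overlapped with both. The lowest levels were those of *Ppargc1a* in macrophages, at 0.0493 ± 0.0258 CPM per kb, and of *Ppara* in macrophages, which had 3 counts in the 3 control libraries together. These orders hold for the merged length of all exons of a gene, and some turn with the length of the longest transcript: *Pparg* then stood at 124 CPM per kb in adipocytes, above *Cebpb* at 95.5, and in myotubes *Rxra* stood at 14.0 against 13.7 for *Cebpb*, and *Ppard* at 6.85 against 5.75 for *Ppargc1b*. The plot of control levels per length uses the first of these lengths.

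**Figure D1:**
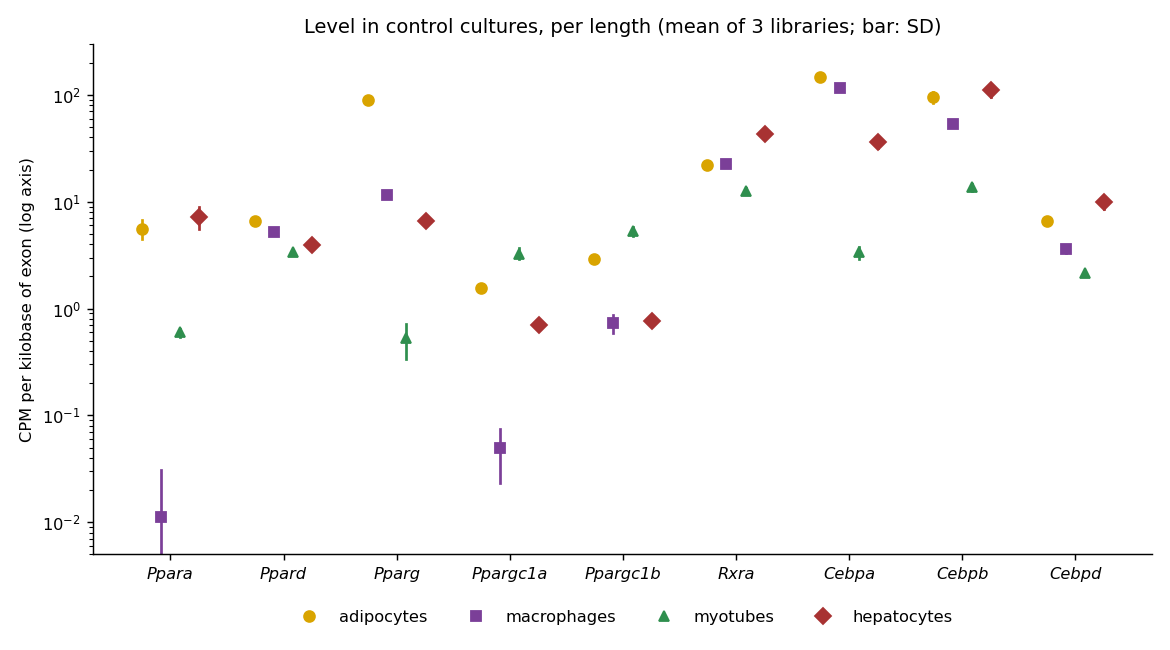
Level of each of the 9 genes in control cultures, in CPM per kilobase of exon on a log axis, as the mean of 3 libraries with the SD as bar, for adipocytes, macrophages, myotubes and hepatocytes. *Cebpa* leads in adipocytes and macrophages at 146 and 115 CPM per kb, and *Cebpb* in hepatocytes at 112 CPM per kb, while in myotubes *Cebpb* and *Rxra* lie within their SDs at 13.7 and 12.6 CPM per kb; the bar of *Ppara* in macrophages reaches below the axis.

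Within each gene, the control levels of most pairs of cell types differed. A difference was called where edgeR's quasi-likelihood test gave an adjusted P below 0.05 over all tested genes. Of the 9 members, 8 differed between adipocytes and macrophages, against 77.5% of all genes, 9 between adipocytes and myotubes (78.2%), 9 between adipocytes and hepatocytes (81.1%), 9 between macrophages and myotubes (82.2%), 8 between macrophages and hepatocytes (82.1%) and 9 between myotubes and hepatocytes (86.6%). *Rxra* did not pass between adipocytes (120 ± 8.35 CPM) and macrophages (122 ± 0.97 CPM), with a log2 difference of -0.03 (95% confidence interval -0.19 to 0.12). Nor did *Ppargc1b* between macrophages and hepatocytes, at 2.92 ± 0.54 and 3.03 ± 0.19 CPM, with an interval from -0.42 to 0.30. Other calls between neighbours were lost with DESeq2, namely those of *Cebpb* and *Ppara* in adipocytes against hepatocytes (log2 differences -0.23 and -0.36, with overlapping libraries; adjusted P = 0.0934 and 0.0703) and of *Ppard* in myotubes against hepatocytes (-0.22; adjusted P = 0.0772). With library totals alone *Cebpb* and *Ppard* changed sign in these pairs, to 0.00938 and 0.0361, neither of which was called. *Pparg* spanned the widest range among genes with counts in all control libraries, being 169-fold higher in adipocytes than in myotubes (log2 difference 7.40 ± 0.11, SE).

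Butyrate altered most of these regulators, in directions that depended on the gene and the cell type. In adipocytes 2 of the 9 members were raised, against 30.7% of all genes, and 6 were lowered, against 30.3%. In macrophages 2 were raised (31.9% of all genes) and 4 lowered (33.2%), in myotubes 5 were raised (33.1%) and 3 lowered (33.4%), and in hepatocytes 4 were raised (31.0%) and 4 lowered (32.4%). In macrophages *Ppargc1b* and *Cebpb* were also called raised with library totals alone (adjusted P = 0.00137 and 0.000361). The same held without macrophage butyrate replicate 1 (adjusted P = 0.0464 and 0.00575). *Ppard* and *Ppargc1a* rose in all 4 cell types, and *Rxra* and *Cebpd* fell in all 4. The share of all genes that did the same was not counted. The paper describes many genes that butyrate moved the same way in every cell type, so such a pattern is not particular to these members. The median absolute log2 change of the members was 0.67 in adipocytes, 0.69 in macrophages, 0.83 in myotubes and 0.83 in hepatocytes, beside 0.42, 0.49, 0.45 and 0.54 for all tested genes. The size of the butyrate effect differed between cell types for 9 of 9 members, which 74.5% of all genes did as well. For *Cebpd* that call was narrow (adjusted P = 0.0409) and was lost with limma-voom (adjusted P = 0.0529), with library totals alone (0.0725) and without single libraries of each cell type (up to 0.113, without macrophage butyrate replicate 1). For *Pparg* it was lost with no filter on low counts (adjusted P = 0.0582). The plots of CPM by library and of fold changes give the values of each gene.

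**Figure D2:**
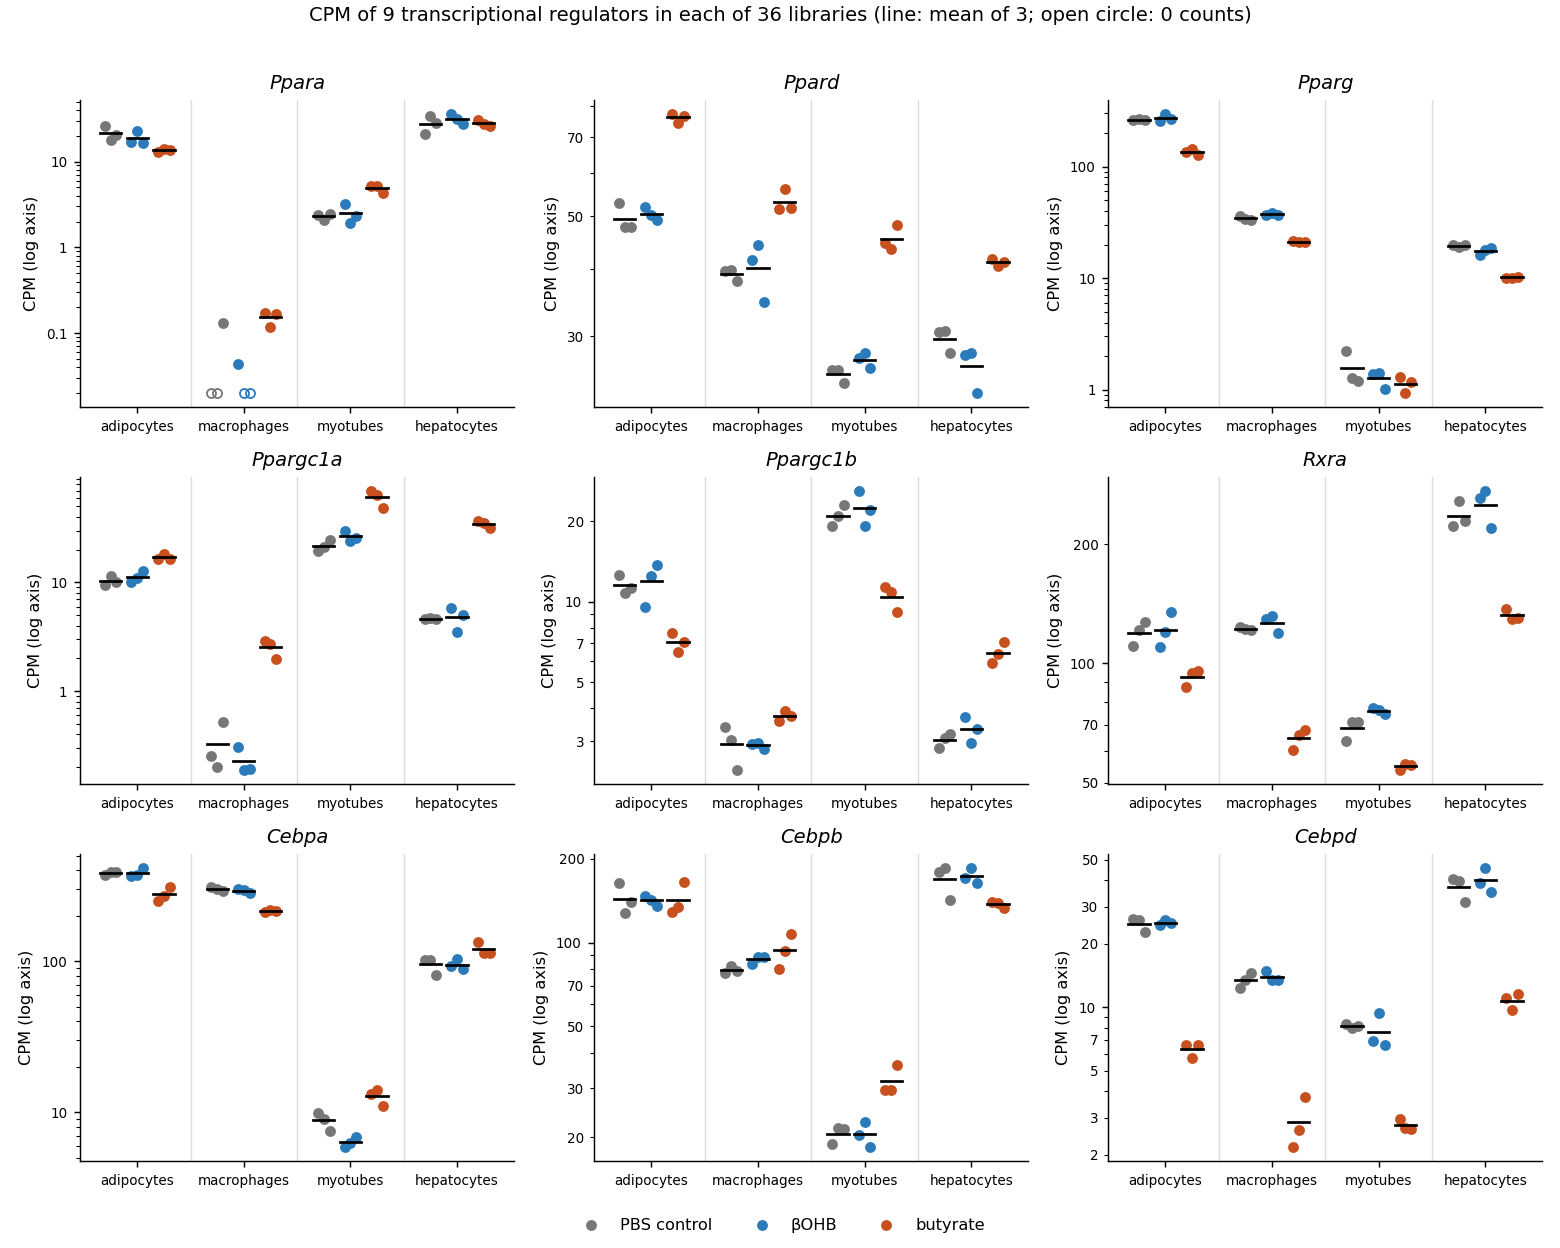
CPM (log axis, ranges differ between panels) of the 9 genes in each of the 36 libraries, with PBS control in grey, βOHB in blue and butyrate in orange; each point is a library, a line is the mean of 3, and an open circle marks a library with 0 counts. The butyrate libraries of *Cebpd* lie between 2.17 and 11.5 CPM, below all control libraries of the same cell type, while those of *Ppargc1a* lie above theirs.

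The sequences upstream of start sites of *Ppard*, *Ppargc1a* and *Rxra*, which moved the same way in every cell type, and of *Pparg* and *Cebpa*, are shown for reference, since no binding or chromatin data accompany the expression values. They are RefSeq promoter windows on GRCm38.p6, up to 250 bases before a start, cut back where an annotated exon begins. Windows of 7 of the 9 genes were taken up, which does not mean that the remaining genes had no entry. The window of *Ppara*, cut back to 38 bases, is not shown. Capitals mark matches, on either strand, to TGACGTCA (the cyclic AMP response element), GGGCGG (the GC box), CACGTG (the E-box), TATAAA (the TATA box) or CCAAT (the motif of the factor NF-Y). The window of *Ppard* (chr17:28232504-28232699, plus strand) held 2 GC boxes and 1 CCAAT, 1 *Rxra* window (chr2:27676951-27677200, plus strand) held 3 GC boxes while another (chr2:27709042-27709291, GC content 55.2%, not printed) held none of the 5, and that of *Cebpa* (chr7:35119043-35119292, plus strand) held 1 TATAAA. One of the *Pparg* windows (chr6:115421816-115422065, plus strand) held 2 CCAAT, another (chr6:115362099-115362291, not printed) held 2 GC boxes and 1 CCAAT, and the *Ppargc1a* window (chr5:51567727-51567975, minus strand) held none of the 5, which says only that these letters are not in this window. Among all 32851 RefSeq windows of 250 bases, GGGCGG was found in 32.7%, CCAAT in 33.8%, TATAAA in 12.4%, CACGTG in 6.02% and TGACGTCA in 1.55%. Over the 196 bases of the *Ppard* window, GGGCGG was found in 23.9% and CCAAT in 27.8% of all windows. GC content was 48.2% for *Ppargc1a* and 40.8% for this *Pparg* start, but 81.2% for the printed *Rxra* window, 66.8% for *Ppard* and 66.4% for *Cebpa*. Gene-level counts do not separate transcripts from different starts.
Ppard: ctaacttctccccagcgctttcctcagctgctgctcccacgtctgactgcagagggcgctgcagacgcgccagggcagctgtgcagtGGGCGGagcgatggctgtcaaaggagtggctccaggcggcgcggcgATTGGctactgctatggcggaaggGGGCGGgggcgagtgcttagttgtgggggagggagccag
Ppargc1a: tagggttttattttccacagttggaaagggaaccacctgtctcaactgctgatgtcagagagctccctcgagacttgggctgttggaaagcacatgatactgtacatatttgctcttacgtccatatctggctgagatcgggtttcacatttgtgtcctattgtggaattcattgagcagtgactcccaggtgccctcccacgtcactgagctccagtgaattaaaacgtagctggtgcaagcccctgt
Rxra: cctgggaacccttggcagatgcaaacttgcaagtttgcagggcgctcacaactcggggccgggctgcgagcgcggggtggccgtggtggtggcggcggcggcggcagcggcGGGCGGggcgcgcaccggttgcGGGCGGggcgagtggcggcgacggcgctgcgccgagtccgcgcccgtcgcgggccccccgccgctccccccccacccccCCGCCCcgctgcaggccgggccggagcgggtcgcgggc
Pparg: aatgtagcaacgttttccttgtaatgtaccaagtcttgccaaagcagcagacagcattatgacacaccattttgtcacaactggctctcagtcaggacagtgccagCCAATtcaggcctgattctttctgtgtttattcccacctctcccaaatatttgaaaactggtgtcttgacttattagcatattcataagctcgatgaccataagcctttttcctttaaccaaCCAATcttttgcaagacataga
Cebpa: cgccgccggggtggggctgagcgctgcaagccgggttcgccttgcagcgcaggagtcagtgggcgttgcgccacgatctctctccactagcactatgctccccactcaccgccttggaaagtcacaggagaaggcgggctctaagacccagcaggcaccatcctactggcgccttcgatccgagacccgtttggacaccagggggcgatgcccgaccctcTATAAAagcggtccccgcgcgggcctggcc

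*Ppara* (chromosome 15, 85734983 to 85802819, GRCm38) encodes the receptor behind hepatic fatty acid oxidation, and its response to butyrate had opposite signs in adipocytes and myotubes. Adipocyte controls held 26.1, 18.0 and 20.4 CPM against 12.9, 14.2 and 13.6 CPM with butyrate, so the groups did not overlap, and the level fell by 0.67 ± 0.16 on the log2 scale (SE; adjusted P = 0.000467). Myotube controls held 2.38, 2.07 and 2.42 CPM and butyrate libraries 5.21, 5.18 and 4.25 CPM, a 2.13-fold rise (log2 1.09 ± 0.23, adjusted P = 0.000103). The hepatocyte markers in these butyrate libraries corresponded to at most 0.409 CPM of *Ppara*, in the ratio seen in hepatocyte cultures. Hepatocytes, whose control range overlapped that of adipocytes, had 20.9, 33.7 and 28.4 CPM in controls and 30.5, 27.6 and 25.9 CPM with butyrate; the groups overlapped, and the difference was 0.02 (95% confidence interval -0.29 to 0.32). In macrophages *Ppara* was at the limit of detection, with 0, 0 and 3 counts in controls and 4, 3 and 4 counts with butyrate. The ratio of 11 to 3 counts, per library total, was 3.94 with an exact counting interval from 1.04 to 22.0, and the adjusted P of the fit was 0.191, or 0.0363 without control replicate 3, which held all 3 control counts. Intervals of this kind cover counting error only.

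*Ppard* (chromosome 17, 28232700 to 28301474) encodes the broadly expressed PPARδ. It was raised by butyrate in all 4 cell types, and in each of them every butyrate library exceeded every control. In adipocytes the levels were 52.9, 47.7 and 47.8 CPM in controls and 77.3, 74.2 and 76.7 CPM with butyrate (1.54-fold, log2 0.62 ± 0.07, adjusted P = 1.58e-09). Macrophage controls had 39.5, 39.7 and 38.0 CPM and butyrate libraries 51.6, 56.0 and 51.9 CPM (log2 0.45 ± 0.07, adjusted P = 9.33e-07). The rise was largest in myotubes, from 26.0, 26.0 and 24.6 CPM to 44.6, 43.5 and 48.2 CPM (1.78-fold, log2 0.83 ± 0.07, adjusted P = 1.03e-11). Hepatocytes went from 30.5, 30.6 and 27.9 CPM to 41.6, 40.5 and 41.1 CPM (log2 0.47 ± 0.07, adjusted P = 1.01e-06). The sizes differed between cell types (adjusted P = 0.0026), and this call was lost when genes with low counts were kept (adjusted P = 0.0699).

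*Pparg* (chromosome 6, 115360951 to 115490399), the master regulator of adipocytes, fell with butyrate wherever it was well expressed. Adipocyte controls held 262, 266 and 261 CPM and butyrate libraries 136, 144 and 127 CPM, a 1.94-fold drop (log2 -0.95 ± 0.07, adjusted P = 2.36e-13). Hepatocytes showed a 1.93-fold drop, from 19.8, 19.2 and 19.7 CPM to 10.1, 10.1 and 10.2 CPM (log2 -0.95 ± 0.09, adjusted P = 1.41e-10). In macrophages the level was 35.9, 33.7 and 33.2 CPM in controls and 21.6, 21.3 and 21.0 CPM with butyrate (log2 -0.69 ± 0.08, adjusted P = 3.16e-09). None of these groups overlapped. The hepatocyte cultures held macrophage markers at 92.7 to 115 CPM in controls and 101 to 121 CPM with butyrate, where the median log2 change of the 6 was -0.72 and 1 of them was called lower. Kupffer cell markers summed to 2.34 to 2.82 CPM in controls and 0.842 to 1.11 CPM with butyrate, and the 4 endothelial markers, all called lower, to 66.1 to 72.3 and 22.0 to 24.5 CPM. The part of these cells in the fall of *Pparg* was not tested. Myotubes had 2.20, 1.28 and 1.19 CPM in controls and 1.30, 0.931 and 1.16 CPM with butyrate, groups that overlapped, with a log2 difference of -0.45 (interval -0.84 to -0.06) and an adjusted P of 0.0505. It passed with no filter (adjusted P = 0.0456), with a filter of more than 20 counts (0.0473), with a replicate block (0.0451) and without control replicate 2 (0.0234), control replicate 3 (0.0143) or butyrate replicate 1 (0.0321). In those libraries the macrophage markers corresponded to up to 0.539 CPM of *Pparg* in controls and 0.143 CPM with butyrate, and the hepatocyte markers to up to 0.289 CPM with butyrate, and their part in the difference was not tested.

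*Rxra* (chromosome 2, 27676440 to 27762957), which encodes the retinoid X receptor α with which all PPARs pair, fell in all 4 cell types without overlap between butyrate and control libraries. Macrophages had the largest estimate, from 123, 122 and 121 CPM to 60.3, 65.9 and 68.0 CPM (1.89-fold lower, log2 -0.92 ± 0.08, adjusted P = 6.34e-12). In hepatocytes the control libraries held 222, 258 and 229 CPM and the butyrate libraries 137, 129 and 131 CPM (log2 -0.83 ± 0.07, adjusted P = 3.22e-11). The intervals of macrophages (-1.07 to -0.76) and hepatocytes (-0.99 to -0.68) overlapped, so these cell types could not be ranked. The drop was smaller in adipocytes, from 111, 121 and 127 CPM to 87.1, 94.9 and 95.6 CPM (log2 -0.37 ± 0.07, adjusted P = 8.02e-05). It was also smaller in myotubes, from 63.7, 71.3 and 71.3 CPM to 53.8, 55.9 and 55.3 CPM (log2 -0.32 ± 0.08, adjusted P = 0.000521). The difference in size between cell types passed with an adjusted P of 5.92e-06. Thus the receptor gene *Ppard* rose while its partner fell in the same libraries.

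*Ppargc1a* (chromosome 5, 51454250 to 51567726, minus strand) encodes PGC-1α, a coactivator induced by exercise in muscle and by fasting in liver. It had the largest rises among the 9 genes. Hepatocyte controls held 4.58, 4.67 and 4.61 CPM and butyrate libraries 36.9, 35.5 and 31.8 CPM, a 7.52-fold increase (log2 2.91 ± 0.16, adjusted P = 2.66e-16). Macrophage controls held only 0.254, 0.202 and 0.519 CPM, 22 counts in all, and butyrate libraries 2.87, 2.73 and 1.99 CPM (log2 2.92 ± 0.33, adjusted P = 4.97e-09). This made the macrophage level with butyrate lower than the control level of the other 3 cell types. In myotubes the gene rose from 19.4, 21.0 and 24.3 CPM to 69.8, 64.3 and 48.6 CPM (2.82-fold, log2 1.50 ± 0.12, adjusted P = 7.96e-12). Adipocytes had the smallest rise, from 9.53, 11.4 and 10.1 CPM to 16.5, 18.2 and 16.5 CPM (log2 0.72 ± 0.14, adjusted P = 3.55e-05). Butyrate and control libraries did not overlap in any cell type. The effect differed between cell types with an adjusted P of 1.55e-09, over a range of 2.19 log2 units.

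*Ppargc1b* (chromosome 18, 61298136 to 61400431, minus strand) encodes the related PGC-1β and did not follow its paralog. In myotubes, where *Ppargc1a* rose, *Ppargc1b* dropped from 19.2, 21.0 and 23.0 CPM to 11.3, 10.8 and 9.17 CPM (2.01-fold lower, log2 -1.01 ± 0.12, adjusted P = 8.2e-09). It also dropped in adipocytes, from 12.6, 10.8 and 11.2 CPM to 7.64, 6.47 and 7.09 CPM (log2 -0.71 ± 0.13, adjusted P = 1.3e-05). Hepatocytes moved the other way, from 2.82, 3.07 and 3.19 CPM to 5.88, 6.34 and 7.09 CPM (2.12-fold higher, log2 1.08 ± 0.16, adjusted P = 7.45e-07). The groups did not overlap in any of the 4 cell types. In macrophages the values were 3.39, 3.02 and 2.34 CPM in controls and 3.56, 3.90 and 3.72 CPM with butyrate, and the difference of 0.36 (interval 0.03 to 0.68) missed the threshold with an adjusted P of 0.0522. It passed with RLE scaling (adjusted P = 0.0418), library totals alone (log2 0.58, 0.00137), the macrophage libraries alone (0.0261) and without control replicate 1 (0.0213) or butyrate replicate 1 (0.0464). The butyrate effect on *Ppargc1b* spanned 2.09 log2 units between cell types (adjusted P = 3.78e-10).

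*Cebpa* (chromosome 7, 35119293 to 35121928) encodes C/EBPα, which maintains the adipocyte, hepatocyte and myeloid states. It was lowered by butyrate in adipocytes and macrophages and raised in myotubes and hepatocytes. Adipocyte controls held 375, 390 and 389 CPM against 251, 272 and 312 CPM with butyrate (log2 -0.47 ± 0.09, adjusted P = 3.11e-05). Macrophage controls held 312, 303 and 294 CPM against 212, 218 and 214 CPM (log2 -0.50 ± 0.09, adjusted P = 1.21e-05). In both, all butyrate libraries lay below all controls. Hepatocytes rose from 102, 103 and 81.5 CPM to 134, 114 and 114 CPM (log2 0.34 ± 0.09, adjusted P = 0.00182). Myotubes, in which the gene was scarce, rose from 9.91, 9.07 and 7.52 CPM to 13.1, 14.1 and 11.0 CPM (1.44-fold, log2 0.53 ± 0.12, adjusted P = 0.000207). The hepatocyte markers in the butyrate myotube libraries corresponded to at most 1.41 CPM of *Cebpa*, and the macrophage markers were lower there than in controls. The difference between cell types had an adjusted P of 3.01e-08.

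*Cebpb* (chromosome 2, 167688915 to 167690418) encodes C/EBPβ, an early factor in adipogenesis and a mediator of inflammatory signals. In myotubes it rose with butyrate from 18.8, 21.5 and 21.4 CPM to 29.5, 29.6 and 36.3 CPM (1.54-fold, log2 0.63 ± 0.12, adjusted P = 3.22e-05). In hepatocytes it was lower with butyrate, at 139, 139 and 133 CPM against 179, 185 and 142 CPM (log2 -0.30 ± 0.10, adjusted P = 0.0139). Adipocyte libraries overlapped fully, with 164, 128 and 140 CPM in controls and 129, 134 and 165 CPM with butyrate, a difference of -0.01 (interval -0.22 to 0.20). Macrophage libraries overlapped too, with 77.8, 82.3 and 78.9 CPM against 80.3, 93.1 and 108 CPM (log2 0.23, interval 0.02 to 0.45, adjusted P = 0.0536). The macrophage value passed with DESeq2 (adjusted P = 0.0353), RLE scaling (0.0374), library totals alone (log2 0.46, 0.000361), no filter (0.018), the macrophage libraries alone (0.00415) and without butyrate replicate 1 (log2 0.36, 0.00575), and the hepatocyte call was lost with library totals alone (adjusted P = 0.0588) and without hepatocyte control replicate 1 or 2 (adjusted P = 0.0645 and 0.0897). *Tmem189*, on the opposite strand, shares exon bases with *Cebpb*, and since no source states that strand was used in counting, reads from the shared bases cannot be told apart. *Tmem189* itself went from 42.5 to 99.7 CPM in hepatocytes (log2 1.23), from 100 to 158 CPM in myotubes (log2 0.66), from 91.0 to 139 CPM in adipocytes (log2 0.61) and from 350 to 298 CPM in macrophages (log2 -0.23).

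*Cebpd* (chromosome 16, 15887286 to 15891031) encodes C/EBPδ, which is quickly induced by glucocorticoids and cytokines. It showed the largest drops among the 9 genes, in every cell type and without overlap. Macrophages fell from 12.4, 13.5 and 14.6 CPM to 2.17, 2.61 and 3.76 CPM, 4.72-fold lower (log2 -2.24 ± 0.15, adjusted P = 5.19e-14). Adipocytes fell from 26.2, 25.8 and 22.7 CPM to 6.61, 5.73 and 6.60 CPM, 3.95-fold lower (log2 -1.98 ± 0.13, adjusted P = 4.25e-14). Hepatocytes, with the highest control level, fell from 40.3, 39.8 and 31.6 CPM to 11.1, 9.66 and 11.5 CPM (log2 -1.79 ± 0.12, adjusted P = 8.85e-14). The smallest drop was in myotubes, from 8.30, 7.97 and 8.18 CPM to 2.97, 2.67 and 2.64 CPM (log2 -1.56 ± 0.16, adjusted P = 6.61e-10). *Spidr*, which shares exon bases with *Cebpd* on the opposite strand, did not fall with it: it had a log2 change of 0.59 in adipocytes, 0.61 in myotubes and 0.69 in hepatocytes, and 0.07 in macrophages, where it did not pass the test. *Gm45091* likewise overlaps *Cebpa* on the opposite strand.

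βOHB left the levels of these regulators near control. Butyrate and βOHB were compared with the same control libraries, so the 2 sets of values are not independent and are only set side by side. Of the 9 members, βOHB changed 0 by the test in adipocytes (0.00652% of all genes), 0 in macrophages (0.0%), 1 in myotubes (2.91%) and 0 in hepatocytes (0.00652%). Over all genes limma-voom called 0, 0, 353 and 1, and DESeq2 3, 2, 619 and 2, in the same order of cell types, whereas fits on the libraries of 1 cell type alone called 0, 5, 0 and 1. At an unadjusted P below 0.05 the members numbered 0, 0, 2 and 1 of 9, and all genes 1097, 358, 2104 and 845. The median absolute log2 change over the 36 combinations of gene and cell type was 0.09 with βOHB and 0.70 with butyrate. The 95% confidence interval of a βOHB change had a median half-width of 0.23, so that changes smaller than this were in general not resolved. The effect of βOHB differed between cell types for 0 of 9 members, against 0.978% of all genes.

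**Figure D3:**
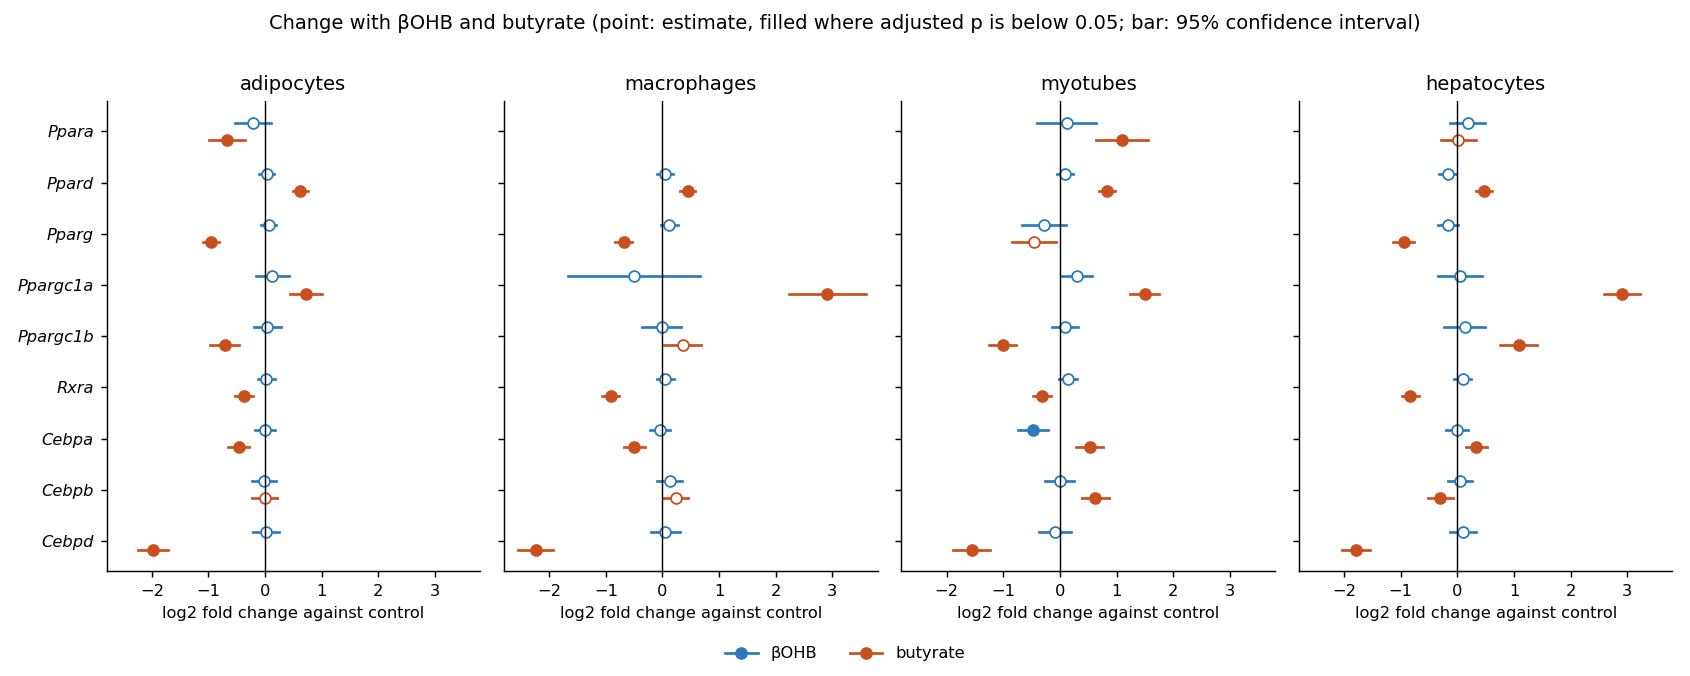
Log2 fold change relative to PBS within each cell type (x axis) for each gene (y axis), with βOHB in blue and butyrate in orange; bars are 95% confidence intervals and filled points have an adjusted P below 0.05. Filled points are numerous for butyrate, from -2.24 for *Cebpd* to 2.92 for *Ppargc1a* in macrophages, whereas for βOHB the single filled point is *Cebpa* in myotubes at -0.48; *Ppara* in macrophages is left out for its low counts.

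Among the receptors and their partner, the βOHB libraries of *Ppard* held 51.9, 50.3 and 49.2 CPM in adipocytes, 41.5, 44.3 and 34.6 CPM in macrophages, 27.4, 27.9 and 26.2 CPM in myotubes and 27.7, 28.0 and 23.6 CPM in hepatocytes. Its hepatocyte value was the one that reached an unadjusted P below 0.05 there (log2 -0.17, interval -0.32 to -0.02, adjusted P = 0.866). *Pparg* held 257, 298 and 270 CPM in adipocytes, with a difference of 0.06 (interval -0.07 to 0.20), while butyrate gave -0.95 in the same cells. Its other βOHB libraries held 36.5, 38.6 and 36.5 CPM in macrophages, 1.38, 1.42 and 1.02 CPM in myotubes and 16.1, 17.8 and 18.5 CPM in hepatocytes. The macrophage libraries lay above all controls (log2 0.12) and the hepatocyte libraries below them (log2 -0.16, adjusted P = 0.944), as the myotube libraries of *Ppard* lay above theirs (log2 0.09), and none of these passed the test. *Rxra* differed from control by 0.02, 0.05, 0.14 and 0.09 on the log2 scale in adipocytes, macrophages, myotubes and hepatocytes, and its myotube libraries, at 77.3, 76.2 and 74.5 CPM, all exceeded the controls (adjusted P = 0.414). *Ppara*, the receptor most tied to fasting, had 36.1, 31.1 and 27.1 CPM in hepatocytes with βOHB, within the range of the controls except for the highest library (log2 0.18, interval -0.12 to 0.49).

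Among the coactivators, *Ppargc1a* in myotubes held 30.0, 24.1 and 25.8 CPM with βOHB against 19.4, 21.0 and 24.3 CPM in controls, so the groups overlapped (log2 0.30, interval 0.04 to 0.56, adjusted P = 0.258). Butyrate gave 1.50 there. In hepatocytes *Ppargc1a* had 5.78, 3.48 and 5.03 CPM with βOHB (log2 0.04, interval -0.35 to 0.43). In macrophages it had 15 counts over the 3 βOHB libraries, against 22 in controls (log2 -0.51, interval -1.68 to 0.67). *Ppargc1b* differed by 0.04, -0.01, 0.10 and 0.13 in the same order of cell types as for *Rxra*. *Cebpd* differed by 0.01, 0.05, -0.09 and 0.10, and *Cebpb* by -0.02, 0.13, -0.01 and 0.04. The βOHB libraries of *Cebpd* held 24.6, 25.8 and 25.1 CPM in adipocytes, 14.8, 13.5 and 13.4 CPM in macrophages and 6.89, 9.42 and 6.65 CPM in myotubes, all of them above every butyrate library of the same cells. Those of *Cebpb* in macrophages, at 83.5, 89.0 and 88.7 CPM, lay above all controls without a call (interval -0.09 to 0.35).

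The exception was *Cebpa* in myotubes, which held 9.91, 9.07 and 7.52 CPM in controls and 5.88, 6.22 and 6.87 CPM with βOHB, without overlap (log2 -0.48 ± 0.13, adjusted P = 0.0319). With butyrate the gene went the other way in the same cells. The call was lost with limma-voom (adjusted P = 0.174), with the myotube libraries fitted alone (adjusted P = 0.292), and without control replicate 1 or 2 (adjusted P = 0.305 and 0.103) or βOHB replicate 1 or 2 (adjusted P = 0.166 and 0.129). Macrophages express *Cebpa* at 303 ± 9.15 CPM, and all 6 macrophage markers and 2 of 3 proliferation markers were called lower in the βOHB myotubes. The macrophage markers of the individual libraries corresponded to 4.76, 3.82 and 1.90 CPM of *Cebpa* in controls and to 1.05, 0.775 and 1.86 CPM with βOHB. These values take the ratio of *Cebpa* to the markers from macrophage cultures, and the part of macrophage RNA in the difference was not tested. In macrophages themselves *Cebpa* differed by -0.05 with βOHB (interval -0.23 to 0.13), with 303, 295 and 283 CPM.

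**Figure D4:**
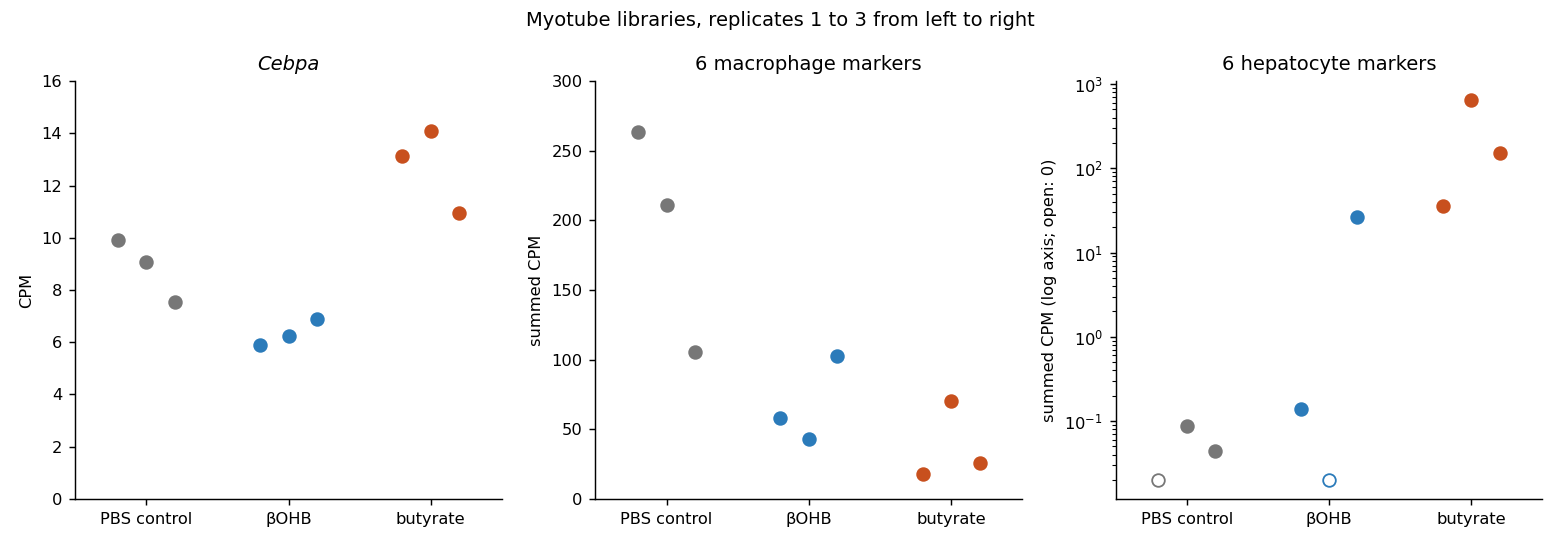
The 9 myotube libraries by treatment, replicates 1 to 3 from left to right, with the CPM of *Cebpa* (left), the summed CPM of 6 macrophage markers (middle) and the summed CPM of 6 hepatocyte markers (right, log axis, open circles at 0). Macrophage markers are highest in control replicates 1 and 2, at 263 and 211 CPM, and hepatocyte markers in butyrate replicate 2, at 645 CPM.

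Compared directly at the same dose and time, butyrate and βOHB gave different levels for most members, in 36 comparisons. In adipocytes 8 of 9 members differed (59.5% of all genes), in macrophages 7 (64.7%), in myotubes 8 (66.0%) and in hepatocytes 8 (63.5%). *Cebpd* was lower with butyrate than with βOHB by 2.00 log2 units in adipocytes, 2.29 in macrophages, 1.47 in myotubes and 1.90 in hepatocytes, where the βOHB libraries held 38.6, 45.8 and 35.3 CPM. *Ppargc1a* was higher with butyrate by 0.60, 3.42, 1.20 and 2.87 log2 units in the same order. *Pparg* was lower by 1.02 in adipocytes, 0.81 in macrophages and 0.79 in hepatocytes, and *Rxra* by 0.40, 0.97, 0.47 and 0.93 in the 4 cell types. *Ppard* was higher by 0.59, 0.41, 0.74 and 0.64, and *Ppargc1b* was lower by 0.75 in adipocytes and 1.10 in myotubes but higher by 0.95 in hepatocytes. *Ppara* was lower with butyrate in adipocytes (log2 -0.45, adjusted P = 0.0146), a call lost with library totals alone (adjusted P = 0.066) and without βOHB replicate 2 (adjusted P = 0.139), and higher in myotubes (log2 0.97). *Cebpa* in myotubes was 2.01-fold higher with butyrate (log2 1.01 ± 0.12, adjusted P = 1.9e-08). Where no difference was called, the intervals still allowed moderate ones. They ran from -0.47 to 0.14 for *Ppara* in hepatocytes, from -0.57 to 0.24 for *Pparg* in myotubes, from -0.20 to 0.22 for *Cebpb* in adipocytes and from -0.11 to 0.32 for *Cebpb* in macrophages. With library totals alone, *Cebpb* in macrophages was called higher with butyrate (log2 0.33, adjusted P = 0.00696). *Ppara* in macrophages had 11 counts with butyrate and 1 with βOHB, a ratio of 11.6 with an exact counting interval from 1.68 to 497, and an adjusted P of 0.0588 that passed the threshold with limma-voom (0.0464), DESeq2 (0.0189), library totals alone (0.0341), no filter (0.0116), the macrophage libraries alone (0.0351) and without βOHB replicate 1 (0.0479). The narrowest call was *Ppargc1b* in macrophages (log2 0.36, adjusted P = 0.0475), and it was lost under several alternatives, DESeq2 among them (adjusted P = 0.0532).

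Genes connected to these regulators were followed in 7 lists, and the plot of list counts gives how many passed under butyrate. The counts stand beside the shares of all genes given above, which were 30.7% raised and 30.3% lowered in adipocytes, 31.9% and 33.2% in macrophages, 33.1% and 33.4% in myotubes and 31.0% and 32.4% in hepatocytes. No list was tested against them. Of 16 genes that PPARγ controls in adipocytes, 12 fell and 1 rose in adipocytes, with a median log2 change of -0.43 beside 0.00 for all genes. *Plin1*, which coats the lipid droplet and is also one of the adipocyte markers, fell from 896 ± 36.3 to 375 ± 35.6 CPM (log2 -1.26, adjusted P = 5.83e-12), and *Slc2a4*, the insulin-responsive glucose transporter, was the one that rose (log2 0.30, adjusted P = 0.023). In macrophages 5 rose and 4 fell, *Slc2a4* rising from 0.0739 to 6.07 CPM and the triglyceride synthesis gene *Agpat2* falling from 22.6 to 10.4 CPM. All 6 myotube markers were called higher in the same contrast, and their part in the rise of *Slc2a4* was not tested. In myotubes, in whose butyrate libraries all 6 hepatocyte markers were called higher, 8 rose and 3 fell, with a median of 0.59, and in hepatocytes 8 rose and 3 fell, with a median of 0.27. *Acsl1*, an acyl-CoA synthetase, rose in both, from 74.1 to 123 CPM and from 121 to 359 CPM. *Cd36*, a fatty acid transporter, fell in myotubes from 107 to 61.4 CPM, and *Agpat2* fell in hepatocytes by 0.68 on the log2 scale.

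**Figure D5:**
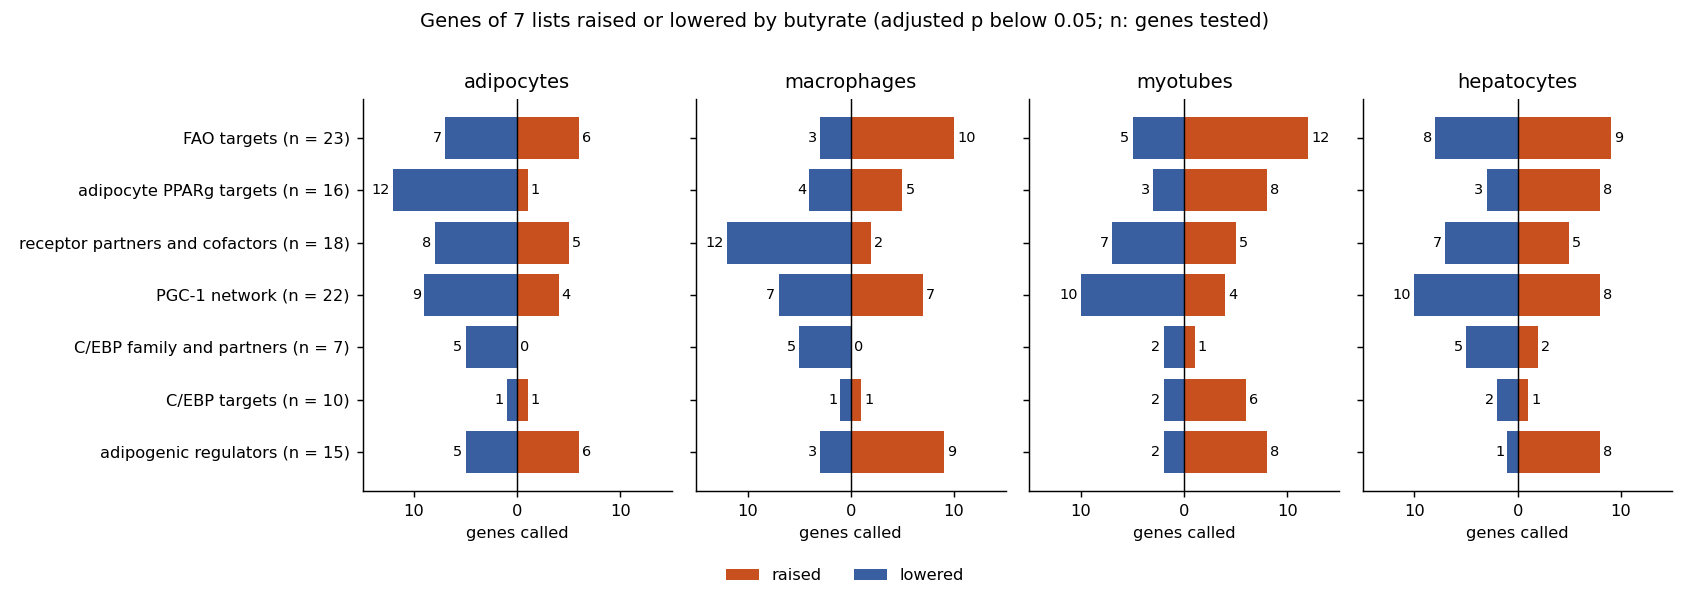
Number of genes of each of 7 lists raised (orange, to the right) or lowered (blue, to the left) by butyrate at an adjusted P below 0.05 in each cell type, with the number of genes tested in brackets. The PPARγ targets of adipocytes stand at 12 lowered and 1 raised in adipocytes, but at 3 lowered and 8 raised in myotubes and hepatocytes.

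Classical targets of PPARα and PPARδ, among them genes of fatty acid oxidation, went both ways as a list. Of 23 tested, 6 rose and 7 fell in adipocytes, 10 rose and 3 fell in macrophages, 12 rose and 5 fell in myotubes, and 9 rose and 8 fell in hepatocytes, with medians of -0.08, 0.21, 0.18 and 0.00. In adipocytes these counts are near the 30.7% raised and 30.3% lowered of all genes. *Acot1*, an acyl-CoA thioesterase, rose from 1.60 to 13.9 CPM in adipocytes and from 2.43 to 33.0 CPM in hepatocytes (log2 3.11 and 3.76). *Hadhb*, a subunit of the mitochondrial trifunctional protein, rose from 61.2 to 120 CPM in macrophages, and *Acadm*, the medium-chain acyl-CoA dehydrogenase, from 65.9 to 101 CPM in myotubes. *Ucp3*, a mitochondrial carrier, fell from 10.8 to 2.65 CPM in adipocytes and from 4.59 to 0.537 CPM in myotubes. *Plin2*, a lipid droplet protein, fell in macrophages from 721 to 310 CPM, and *Vnn1*, a pantetheinase, in hepatocytes from 17.3 to 9.65 CPM.

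Of 18 partners and cofactors of nuclear receptors, 8 fell and 5 rose in adipocytes and 12 fell and 2 rose in macrophages, where 33.2% of all genes fell and 31.9% rose. Both myotubes and hepatocytes had 7 that fell and 5 that rose, near the shares of all genes, and the medians were -0.16, -0.27, -0.27 and -0.14. The acetyltransferase gene *Crebbp* fell from 63.7 to 26.0 CPM in adipocytes and from 102 to 35.2 CPM in macrophages, and *Ep300*, its paralog, from 108 to 50.0 CPM in myotubes. *Nr1h3*, which encodes the liver X receptor α, another RXR partner, fell in hepatocytes from 47.7 to 11.4 CPM (log2 -2.06, adjusted P = 1.26e-16). The deacetylase gene *Hdac3* rose in adipocytes and macrophages (log2 0.59 and 0.68), and *Lpin1*, which binds PGC-1α, in hepatocytes from 67.3 to 179 CPM.

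Within the PGC-1 network, 4 of 22 genes rose and 9 fell in adipocytes. Macrophages had 7 up and 7 down, near the 31.9% and 33.2% of all genes, myotubes 4 up and 10 down and hepatocytes 8 up and 10 down, with medians of -0.08, 0.03, -0.16 and -0.08. *Pprc1*, the remaining member of the PGC-1 family, was the lowered gene with the smallest P in every cell type, with log2 changes of -1.51, -1.56, -1.34 and -1.84. Within the PGC-1 family, *Ppargc1a* thus rose in all 4 cell types and *Pprc1* fell in all 4, while *Ppargc1b* fell in adipocytes and myotubes and rose in hepatocytes. *Esrrg*, an estrogen-related receptor gene and the raised gene of smallest P in myotubes and hepatocytes, stood at 5.81 and 20.2 CPM in control and butyrate myotubes (log2 1.80, adjusted P = 1.32e-10) and at 0.0619 and 1.45 CPM in hepatocytes, and the related *Esrrb* stood at 0.286 and 2.02 CPM in adipocytes. *Sod2*, the mitochondrial superoxide dismutase, rose in macrophages from 74.3 to 122 CPM.

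Among 7 further C/EBP family members and partners, 0 rose and 5 fell in adipocytes and in macrophages, where 30.3% and 33.2% of all genes fell, 1 rose and 2 fell in myotubes, and 2 rose and 5 fell in hepatocytes, with medians of -0.51, -0.41, -0.11 and -0.37. *Atf4*, a C/EBP-related stress factor, fell in all 4 cell types by 1.02, 0.86, 0.93 and 0.86 on the log2 scale. *Ddit3*, a stress-induced C/EBP family member, rose in myotubes from 15.0 to 24.4 CPM, and *Trib2*, a pseudokinase that directs C/EBPα to degradation, rose in hepatocytes from 0.346 to 2.09 CPM.

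Of 10 C/EBP targets, 1 rose and 1 fell in adipocytes and in macrophages, 1 rose and 2 fell in hepatocytes, and 6 rose and 2 fell in myotubes. Outside myotubes these counts are below the shares of all genes, which were at least 30.3% each way. The cytokine gene *Il6* fell in adipocytes from 6.35 to 1.01 CPM and the acute-phase gene *Saa3* rose from 5.72 to 11.2 CPM. *Csf3r*, the receptor for granulocyte colony-stimulating factor, fell in macrophages from 45.9 to 8.84 CPM, and *Scd1*, a fatty acid desaturase, rose from 41.4 to 54.6 CPM. In hepatocytes the gluconeogenic gene *G6pc* fell from 13.9 to 6.80 CPM and *Saa3* rose from 108 to 176 CPM. The myotube median was 4.87, and the medians of the other cell types were -0.02, 0.02 and -0.18 in adipocytes, macrophages and hepatocytes. *Hp*, the acute-phase gene haptoglobin, which the liver secretes, stood in myotubes at 0.0887 CPM in controls and at 46.0 ± 50.3 CPM in the butyrate libraries, the same libraries in which the 6 hepatocyte markers reached 35.4, 645 and 150 CPM. The part of hepatocyte RNA in those rises was not tested. *Csf3r*, a myeloid gene, stood at 0.328 CPM in control myotubes, 0.0449 CPM with βOHB and 0.0136 CPM with butyrate, and was called lower with either compound, as were the macrophage markers.

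Of 15 adipogenic regulators outside the C/EBP and PPAR families, 6 rose and 5 fell in adipocytes, near the shares of all genes. In macrophages 9 rose and 3 fell, in myotubes 8 rose and 2 fell and in hepatocytes 8 rose and 1 fell, where 31.9%, 33.1% and 31.0% of all genes rose, and the medians were -0.03, 0.66, 0.36 and 0.75. *Zfp423*, a determinant of preadipocyte identity, fell in adipocytes from 38.0 to 11.5 CPM, and *Klf4* rose there from 20.4 to 37.2 CPM. *Klf5*, which C/EBPβ and C/EBPδ induce, fell in myotubes from 236 to 95.7 CPM and in hepatocytes from 18.7 to 8.32 CPM. *Egr2* rose in myotubes (log2 1.44), *Gata2*, which restrains adipogenesis, rose in hepatocytes from 0.628 to 6.45 CPM, and in macrophages *Stat5a* rose (log2 0.75) and *Srebf1* fell (log2 -0.71). With βOHB, the 111 list genes tested held 2 calls in all, both in myotubes: *Csf3r*, above, and the lipoprotein lipase gene *Lpl*. *Lpl* went from 39.5 ± 8.03 to 26.5 ± 2.60 CPM (log2 -0.58, adjusted P = 0.0498). Of all genes 2.91% were called in myotubes with βOHB, and no gene was called with the myotube libraries fitted alone. All 6 macrophage markers were called lower in the same contrast, with a median log2 change of -1.56, and their part in these calls was not tested. The lists were put together with earlier results of these data known, so their counts are descriptions.

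The genes whose log2 CPM followed each member most closely over the 36 libraries were taken over libraries that fall into clusters by cell type. *Cebpa* was closest to *Nampt* (Pearson's r = 0.99), *Cebpb* to *Hacd2* (0.98), *Cebpd* to *Fbxo4* (0.98), *Pparg* to *Plac8* (0.98), *Ppara* to *Met* (0.98), *Ppard* to *Add3* (0.97), *Rxra* to *Irak1* (0.98), *Ppargc1a* to *Egln3* (0.97) and *Ppargc1b* to *Spry1* (0.96). These coefficients are descriptions over libraries that share culture and group, with no test.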

How the data were processed

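RNA of 36 libraries (12 groups of 3) was sequenced as paired reads. The authors quantified them with Salmon 1.2.1 on GRCm38.p6, per the labels and the methods, and deposited one table of estimated counts per gene, which need not be whole and were rounded here. The sources used here do not state strand use or pooling of replicates. Gene positions came from GENCODE M21, in which 54094 of 54347 identifiers were found.

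Genes with more than 1 CPM in at least 6 libraries were kept (15340 genes). Library sizes were scaled by TMM, and edgeR 4.0.16 (R 4.3.3) quasi-likelihood tests were run in one fit over all 12 groups, with Benjamini-Hochberg adjustment over all tested genes and a threshold of 0.05. The CPM printed are TMM-scaled. Python 3.11.15 was used for summaries and figures. Alternatives were limma 3.58.1 (voom), DESeq2 1.42.0, RLE scaling, library totals alone, other filters on low counts, fits on only the cell types compared, a replicate block and leaving out each replicate. The tests were also tried on simulated data. An exact permutation test of 3 against 3 cannot give a P below 0.1 and was not used.

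Every member was named in each comparison, and for each list the raised and the lowered gene of smallest P under butyrate and every gene called under βOHB. Not every gene that this rule names is reported here. The most alike gene was taken by Pearson's r of log2 CPM with a prior count of 2. The members and lists were chosen with earlier results of these data known. The equivalent of a marker list is the CPM a gene would have if the listed markers came with the gene in the ratio seen in control cultures of that cell type.

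Same-numbered treated and control libraries correlated in their deviations between -0.216 and 0.225, with 3 of 24 pairs above 0.1, so the numbers were not taken to pair samples. Within groups, no library was a repeat of another: the 36 replicate pairs differed by a chi-square per degree of freedom of 2.55 to 42.4. Libraries of different groups were not compared in this way.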

Additional observations from a re-analysis of the deposited data

Results flagged for a closer look

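For each of the 9 regulators the butyrate effect differed between cell types in a joint edgeR test of the interaction, though for *Ppard*, *Pparg* and *Cebpd* not under every alternative. The distance between the highest and the lowest log2 change was 1.76 for *Ppara* (1.09 in myotubes, -0.67 in adipocytes; adjusted P = 1.71e-05 over all 4 cell types, while the distance leaves out macrophages for low counts). It was 0.39 for *Ppard* (myotubes 0.83, macrophages 0.45; adjusted P = 0.0026) and 0.50 for *Pparg* (myotubes -0.45, adipocytes -0.95; adjusted P = 0.021, and 0.0582 with no filter on low counts). For the coactivators it was 2.19 for *Ppargc1a* (macrophages 2.92, adipocytes 0.72; adjusted P = 1.55e-09) and 2.09 for *Ppargc1b* (hepatocytes 1.08, myotubes -1.01; adjusted P = 3.78e-10). *Rxra* had a distance of 0.60 (myotubes -0.32, macrophages -0.92; adjusted P = 5.92e-06).

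Among the C/EBP genes the distance was 1.03 for *Cebpa* (myotubes 0.53, macrophages -0.50; adjusted P = 3.01e-08), 0.93 for *Cebpb* (myotubes 0.63, hepatocytes -0.30; adjusted P = 6.05e-05) and 0.68 for *Cebpd* (myotubes -1.56, macrophages -2.24; adjusted P = 0.0409, lost with limma-voom at 0.0529, with library totals alone at 0.0725 and without several single libraries, up to 0.113 without macrophage butyrate replicate 1). The direction itself differed between cell types for *Ppara*, *Ppargc1b*, *Cebpa* and *Cebpb*. For *Cebpb* this rests on the fall in hepatocytes. That call was lost with library totals alone (adjusted P = 0.0588) and without hepatocyte control replicate 1 or 2 (adjusted P = 0.0645 and 0.0897). The treatment medium was the same for adipocytes and macrophages only, so for other pairs cell type and medium cannot be told apart. In every pair, isolation and earlier culture differed together with cell type.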

How the results depend on the processing

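Of 2772 member values under alternatives, 2690 stayed on their side of the threshold, 54 lost the call, 26 gained one and 2 reversed from a call; 58 values without a call also changed sign, 43 of them under βOHB. The 2 reversed values were control levels with library totals alone, *Cebpb* in adipocytes against hepatocytes at 0.00938 and *Ppard* in myotubes against hepatocytes at 0.0361, both not called. The βOHB count in myotubes, 1 of 9, was 0 with limma-voom and 0 with only the myotube libraries, and 0 to 1 with 1 replicate left out. The βOHB effect across cell types gave 1 (*Cebpa*) with no filter on low counts. With the replicate block, butyrate called 8, 6, 9 and 8 members in adipocytes, macrophages, myotubes and hepatocytes and βOHB 0, 0, 1 and 0: *Pparg* in myotubes was gained (adjusted P = 0.0451), and *Ppargc1b* in macrophages against βOHB (adjusted P = 0.0745) and *Cebpd* across cell types (adjusted P = 0.0546) were lost, and the block changed no other call. With 1 replicate left out, butyrate called 8 to 8, 6 to 8, 8 to 9 and 7 to 8 members. Library totals alone moved the median of all genes under butyrate by 0.20 in macrophages and 0.13 in myotubes, and no butyrate member reversed; all genes raised and lowered were then 5406 and 3793 against 4717 and 4642 in adipocytes, 6685 and 3339 against 4886 and 5086 in macrophages, and 6271 and 3873 against 5083 and 5117 in myotubes. With no filter βOHB called 192, 35, 895 and 48 of all genes in the 4 cell types, against 1, 0, 446 and 1, and with only the libraries of 1 cell type 0, 5, 0 and 1. For low-count genes, *Ppara* in macrophages above all, depth limits what can be seen.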
